A study of Mus musculus with 12 samples.

Results

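Caveolae are flask-shaped pits of the plasma membrane, built from caveolins, which insert into the inner leaflet, and from cavins, which form a coat around the neck and bulb. They buffer membrane tension, carry lipids and cargo and gather signalling receptors, and they are abundant in endothelial cells, adipocytes, fibroblasts and muscle, with caveolin also found in mammary myoepithelium. The genes described here are Cav1 and Cav2 (caveolins 1 and 2, which form hetero-oligomers), Cavin1 (the cavin needed to form caveolae), Cavin2 and Cavin3 (cavins that join the coat) and Ehd2 (an ATPase that holds caveolae at the surface). They were chosen by name as the caveola genes of the count table, and all 6 of 6 were found among its 21743 genes.

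Levels were read from a Drop-seq study of 2 mice of mixed C57BL/6 and 129/Sv background carrying MMTV-Cre and Brca1 flox/flox, so that the glands and the tumors share the same alleles. MMTV-Cre is active mainly in mammary epithelium. From each tumor-bearing mouse mammary gland (MG1, MG2) and a mammary tumor (MT1, MT2) were dissociated, and blood and endothelial cells were depleted before capture. Which glands of these mice were taken is not stated, and their age is not given in the labels. The groups hold 2 libraries of MG1 (818 cells), 2 of MG2 (2335 cells), 5 of MT1 (7690 cells) and 3 of MT2 (10314 cells). Libraries of a group come from 1 animal, so every p-value over libraries measures only their spread, which may be technical, and tumor type and mouse cannot be told apart.

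Depth was 693333 to 14841414 UMIs (unique molecular identifiers, 1 per captured RNA molecule) per library, with medians of 1784 to 4842 UMIs per cell. Cells were clustered without the caveola genes, and clusters were named from marker lists. Outside the fibroblast-like, endothelial-like and immune-like (stromal) clusters lay 20036 of 21157 cells. MT1 held epithelial-like tumor cells (6026 cells) and mesenchymal-like tumor cells (1336 cells), while MT2 was mesenchymal-like (9780 cells). Brca1 itself, read at the 3′ end and therefore no check of the deleted exons, was at 0 in both MG1 libraries and between 1.91 and 16.5 CPM in the others. CPM is the UMI count of a gene scaled to a common library total; CPM outside the stromal clusters, as used here and for the tests, are adjusted by TMM (edgeR's trimmed-mean scaling of libraries), and CPM within a cell class are plain.

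Cav1 and Cav2 lie side by side on the plus strand of mouse chromosome 6 (GRCm38, GENCODE), Cav2 at chr6:17281185-17289115 and Cav1 at chr6:17306335-17341452. Cavin1 is on the minus strand at chr11:100956733-100970887, Cavin2 on the plus strand at chr1:51289126-51302960, Cavin3 on the minus strand at chr7:105480083-105482300 and Ehd2 on the minus strand at chr7:15946958-15967567. The antisense gene Gm15581 overlaps both caveolins. Whether counting used strand is not stated, and the table lists 0 UMIs for Gm15581 in the mesenchymal-like and epithelial-like cells of MT1. Antisense 9330175M20Rik overlaps Cavin2, and the unclassified Gm45667 overlaps Cavin3. The RefSeq start regions (GRCm38.p6, 250 bases before and 50 after the start) of the neighbours Cav1 (first of 2 starts, chr6:17306085-17306384, plus strand) and Cav2 (chr6:17280935-17281234, plus strand), which rose most in MT1, and of Cavin1 (first of 2 starts, chr11:100970568-100970867, minus strand), which did not pass the test there, are shown. Capitals mark the SP1-type GC box GGGCGG on either strand.
Cav1: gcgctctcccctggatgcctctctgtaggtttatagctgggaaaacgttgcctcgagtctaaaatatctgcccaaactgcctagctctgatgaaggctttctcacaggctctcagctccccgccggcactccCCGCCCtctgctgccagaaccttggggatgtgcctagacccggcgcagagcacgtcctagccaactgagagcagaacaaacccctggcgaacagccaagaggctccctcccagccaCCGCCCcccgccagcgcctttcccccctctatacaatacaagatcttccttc
Cav2: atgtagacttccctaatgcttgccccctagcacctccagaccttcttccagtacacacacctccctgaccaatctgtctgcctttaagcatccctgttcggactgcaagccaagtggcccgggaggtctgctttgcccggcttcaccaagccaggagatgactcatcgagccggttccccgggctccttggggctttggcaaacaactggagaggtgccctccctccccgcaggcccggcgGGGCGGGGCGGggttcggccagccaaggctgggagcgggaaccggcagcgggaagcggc
Cavin1: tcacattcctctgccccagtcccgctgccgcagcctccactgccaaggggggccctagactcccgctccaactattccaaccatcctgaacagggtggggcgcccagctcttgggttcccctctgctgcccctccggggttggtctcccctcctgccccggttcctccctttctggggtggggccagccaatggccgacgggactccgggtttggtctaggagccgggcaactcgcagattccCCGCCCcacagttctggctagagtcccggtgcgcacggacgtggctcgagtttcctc
A GC box was found in these 3 windows, and in that of Ehd2, but not at the second Cav1 start (chr6:17307390-17307689) or in the Cavin2 window, which has 4 CpG, and 35.7% of 32851 promoter windows of this length held one. The Cav1 window has 13 CpG, that of Cav2 16 and that of Cavin1 17, against a median of 7 over all windows. The letters TATAAA (either strand; 13.6% of all windows) occurred once in the Cav1 window, in neither of the other two and not at the second Cav1 start, which has 16 CpG. A match is a description of the letters only. No start region is shown for Cavin3.

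Both caveolins rose steeply in both tumors, Cavin2 rose in both, and Cavin1 and Ehd2 passed the test in MT2 but not in MT1. Cav1 was at 29.5 and 36.3 CPM in the MG1 libraries and at 2417, 1456, 2270, 1746 and 3315 CPM in the MT1 libraries. In MG2 it was at 34.2 and 49.8 CPM, and in MT2 at 449, 607 and 540 CPM. Every tumor library lay above every gland library, and MT1 lay above MT2 without overlap. The log2 fold change of Cav1 was 6.14 ± 0.38 (SE) in MT1 against MG1 and 3.66 ± 0.32 in MT2 against MG2 (edgeR quasi-likelihood test, Benjamini-Hochberg adjusted p = 8.88e-10 and 1.35e-08). Without the mesenchymal-like cluster of tumor 1 the first was 2.46 ± 0.39 (edgeR adjusted p = 4.32e-05). The MT1 cells left there are mostly epithelial-like. Their share with a Cav1 UMI was not above that of the hormone-sensing-like cells of MT1, as given below. The part of background RNA in the value of 2.46 was not tested. Without gland cells in tumor clusters the 2 fold changes were 6.88 ± 0.45 and 4.96 ± 0.39.

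Cav2, which depends on Cav1 to reach the surface, was at 84.1 and 27.6 CPM in MG1 and at 1417, 1000, 735, 934 and 1193 CPM in MT1. It was at 40.4 and 42.5 CPM in MG2 and at 153, 151 and 174 CPM in MT2. The tumor libraries of each mouse lay above its gland libraries, by 4.05 ± 0.33 on the log2 scale in mouse 1 and 1.94 ± 0.30 in mouse 2 (edgeR adjusted p = 2.42e-08 and 1.51e-05). Without gland cells in tumor clusters the first was 4.92 ± 0.29.

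Cavin1 followed another pattern. It was at 77.8 and 29.4 CPM in MG1 and at 68.2, 51.4, 58.9, 69.6 and 60.2 CPM in MT1, so the groups overlapped (log2 fold change 0.02 ± 0.24, edgeR adjusted p = 0.949). In MG2 it was at 37.3 and 36.0 CPM and in MT2 at 197, 150 and 198 CPM. The rise was 2.31 ± 0.24 (edgeR adjusted p = 1.55e-07), and from 1.81 to 3.25 over 22 alternatives. The MG1 value hung on 1 library: without MG1 replicate 1 the log2 fold change of Cavin1 was 1.18. That fit leaves MG1 replicate 2 alone, with 71 cells outside the stromal clusters, and assumes that it varies like the other groups. Cavin1 was called lower with all cells included (-0.76, edgeR adjusted p = 0.00124) and without the mesenchymal-like cluster of tumor 1 (-1.08, 0.000607).

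Cavin2 rose in both mice. It was at 37.9 and 63.9 CPM in MG1, at 154, 97.2, 155, 147 and 158 CPM in MT1, at 62.8 and 97.1 CPM in MG2 and at 286, 285 and 256 CPM in MT2. The log2 fold changes were 1.61 ± 0.26 and 1.79 ± 0.23 (edgeR adjusted p = 4.68e-05 and 2.13e-06). Without the mesenchymal-like cluster of MT1 the first was 0.059 (edgeR adjusted p = 0.841). Over 22 alternatives the first ran from 0.059 to 2.80 and the second from 1.43 to 3.18.

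Cavin3, a cavin that binds protein kinase C delta, was at 41.6 to 78.1 CPM over MG1 and MT1 and at 55.7 to 92.8 CPM over MG2 and MT2. Its log2 fold changes of 0.36 ± 0.22 and 0.44 ± 0.19 did not pass (edgeR adjusted p = 0.166 and 0.0558). The first was called in 2 of 22 alternatives and reversed in 2, with values from -0.71 to 0.69. The second lay at the threshold: it passed in 10 of 22 alternatives, with values from 0.27 to 0.70 and adjusted p from 0.0127 to 0.254 over all of them. Ehd2 was the least counted member, at 8.32 and 3.46 CPM in MG1 and 5.10 to 10.5 CPM in MT1, a log2 fold change of 0.25 ± 0.35 (adjusted p = 0.549). In mouse 2 Ehd2 rose from 16.7 and 12.7 CPM in MG2 to 37.1, 37.3 and 39.6 CPM in MT2, by 1.37 ± 0.21 (edgeR adjusted p = 1.61e-05).

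**Figure D1:**
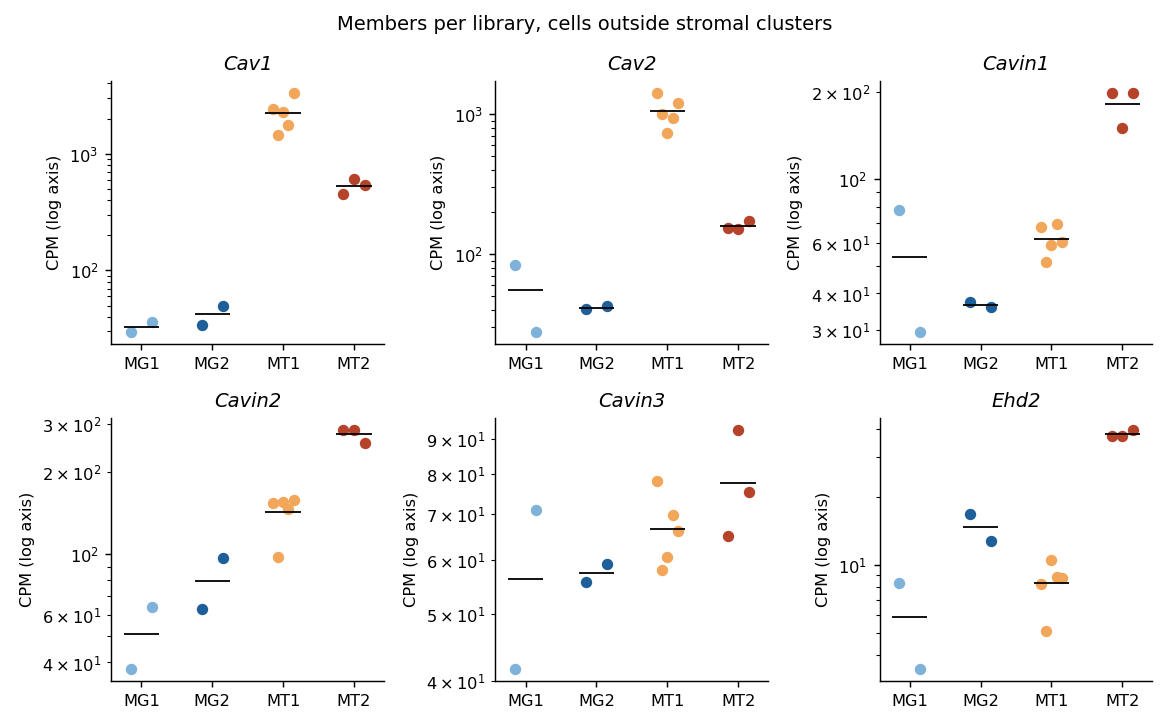
CPM of each gene (log axis, a scale of its own per panel) in every library outside the stromal clusters, with points for libraries and a line at the group mean. Cav1 and Cav2 are highest in MT1, whereas Cavin1, Cavin2 and Ehd2 are highest in MT2.

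In MT1 against MG1, 3 of 6 members were called higher and 0 lower, where 59.3% of the 13653 genes tested were called (32.2% higher and 27.1% lower). In MT2 against MG2 it was 5 of 6 higher, where 67.0% of genes were called (32.7% higher and 34.3% lower). So many genes differ between tumor and gland that a count of calls says little about these genes, and their sizes carry more. The difference between the mice (MT2 change minus MT1 change) was called for 4 of 6 members, against 43.5% of genes (17.1% higher and 26.4% lower): Cav1 -2.48 ± 0.43 (edgeR adjusted p = 0.000166), Cav2 -2.12 ± 0.40 (0.000393), Cavin1 2.29 ± 0.33 (2.29e-05) and Ehd2 1.12 ± 0.42 (0.0407). In this fit the caveolins gained more in mouse 1, and Cavin1 and Ehd2 gained more in mouse 2. The Cav1 direction turned without the mesenchymal-like cluster of tumor 1, to 2.66 (adjusted p = 0.000523) for the difference and 1.71 for MT2 against MT1, and it turned likewise with luminal-like gland, epithelial-like MT1 and mesenchymal-like MT2 cells (1.92 and 1.61), while the Cav2 difference stayed negative in 21 of 21 alternatives. Without MG1 replicate 1 the Ehd2 difference was -0.028, with an adjusted p near 1, and that of Cavin1 was 1.16 (adjusted p = 0.0388). Over all alternatives the Ehd2 call was lost in 7 of 21. Scaling moved the median log2 fold change of all genes in MT1 against MG1 from 0.11 (TMM) to 0 (RLE, a median-ratio scaling), and that of the difference from -0.15 to 0.0019. In MT2 against MT1, 5 of 6 were called, against 68.4% of genes (33.1% higher and 35.3% lower): Cav1 was lower in MT2 by -2.07 ± 0.23 and Cav2 by -2.73 ± 0.24, and Cavin1, Cavin2 and Ehd2 were higher by 1.56 ± 0.17, 0.95 ± 0.17 and 2.14 ± 0.17. Over 22 alternatives these last 3 ran from 1.48 to 2.76, from 0.91 to 2.59 and from 1.97 to 2.96. Cavin3 ran from 0.028 to 1.27 and was called in 2 of 22.

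With each mouse as 1 replicate and the mouse as a block, no member and 0 of 14948 genes (0%) passed in edgeR. Before adjustment 2214 genes had p below 0.05, and DESeq2 called 1367 genes. The members' log2 fold changes were 4.97 ± 0.89 for Cav1, 2.90 ± 0.63 for Cav2, 1.84 ± 0.36 for Cavin2, 1.16 ± 0.80 for Cavin1, 0.90 ± 0.58 for Ehd2 and 0.52 ± 0.38 for Cavin3 (edgeR adjusted p from 0.312 to 0.532). DESeq2 called 3 of 6 members, Cav1, Cav2 and Cavin2.

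**Figure D2:**
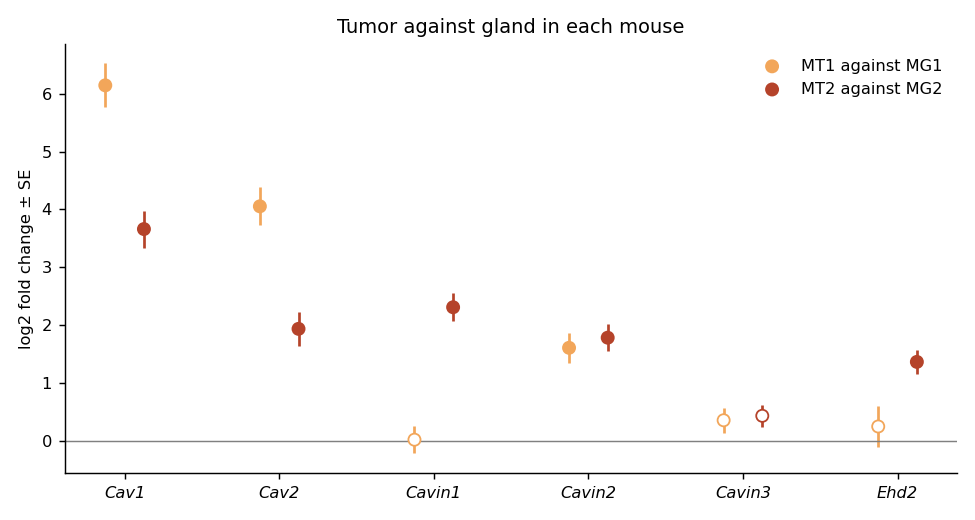
Log2 fold change of each gene, tumor against gland, in mouse 1 and mouse 2, with SE as bars; filled points passed an adjusted p under 0.05. The caveolins are higher in mouse 1 (6.14 and 4.05) than in mouse 2 (3.66 and 1.94), and Cavin1 is near 0 in mouse 1. Without the mesenchymal-like cluster of tumor 1, not plotted, Cav1 was 2.46 in mouse 1 and 5.12 in mouse 2.

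The level of Cav1 in MT1 came from a minority of cells. Mesenchymal-like cells were 17.4% of MT1 cells and held 92.8% of its Cav1 UMIs. They held 37.8% of the Cav2 UMIs, and the epithelial-like cells, 78.4% of MT1, held 61.0% of them. For the cavins the mesenchymal-like share was 59.2% (Cavin1), 70.4% (Cavin2) and 49.3% (Cavin3), and for Ehd2 46.4%. In MT2 the mesenchymal-like cells were 94.8% of cells and held 95.2% to 98.5% of the UMIs of each member.

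**Figure D3:**
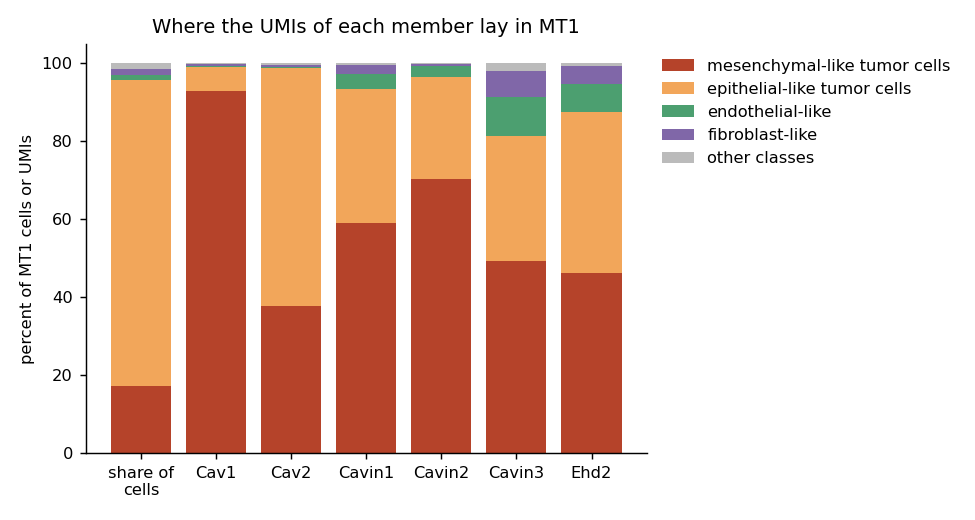
Stacked bars of the percent of MT1 cells (first bar) and of each gene's MT1 UMIs in each cell class. Mesenchymal-like cells are 17.4% of cells but hold 92.8% of Cav1 UMIs, and epithelial-like cells hold 61.0% of Cav2 UMIs.

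In the mesenchymal-like cells of MT1, Cav1 was at 10541, 10762, 10922, 7858 and 13624 CPM in the 5 libraries. In those of MT2 it was at 426, 581 and 525 CPM, and in the epithelial-like cells of MT1 between 97.9 and 287 CPM, a class that includes a small cluster of higher level described further on. The MT1 mesenchymal-like cells thus stood far above both, without overlap. Cav1 was among the genes that lead this cluster although it was kept out of the clustering.

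The difference between the mesenchymal-like cells of the tumors was tested over libraries, with 63.1% of 8842 genes called, 32.0% higher and 31.0% lower in MT2. Cav1 was lower in MT2 by -4.34 ± 0.18 (edgeR adjusted p = 1.09e-16) and Cav2 by -3.68 ± 0.17 (1.43e-15). Cavin2 was lower by -0.95 ± 0.12 (1.16e-07) and Cavin3 by -1.36 ± 0.13 (2.09e-09), while Ehd2 was higher by 0.70 ± 0.18 (0.00150). Cavin1 was at 199 ± 20.6 CPM (SD, n = 5 libraries) in MT1 and 175 ± 26.7 CPM (n = 3) in MT2, a log2 difference of -0.13 ± 0.13 that did not pass (edgeR adjusted p = 0.398). By library the tumors overlapped for Cavin1 and lay apart for Cav1, Cav2, Cavin2, Cavin3 and Ehd2. How many of all genes lay apart was not counted.

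Cav2 differed from Cav1 in its spread over MT1. It was at 2613, 2229, 1432, 1747 and 2231 CPM in the mesenchymal-like cells and at 1126, 834, 555, 716 and 880 CPM in the epithelial-like cells. In gland luminal-like cells of both mice pooled it was at 39.2 CPM. Cavin1 in the epithelial-like cells of MT1 was at 28.1 ± 3.00 CPM (SD, n = 5) and Cavin2 at 47.5 ± 6.43 CPM.

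**Figure D4:**
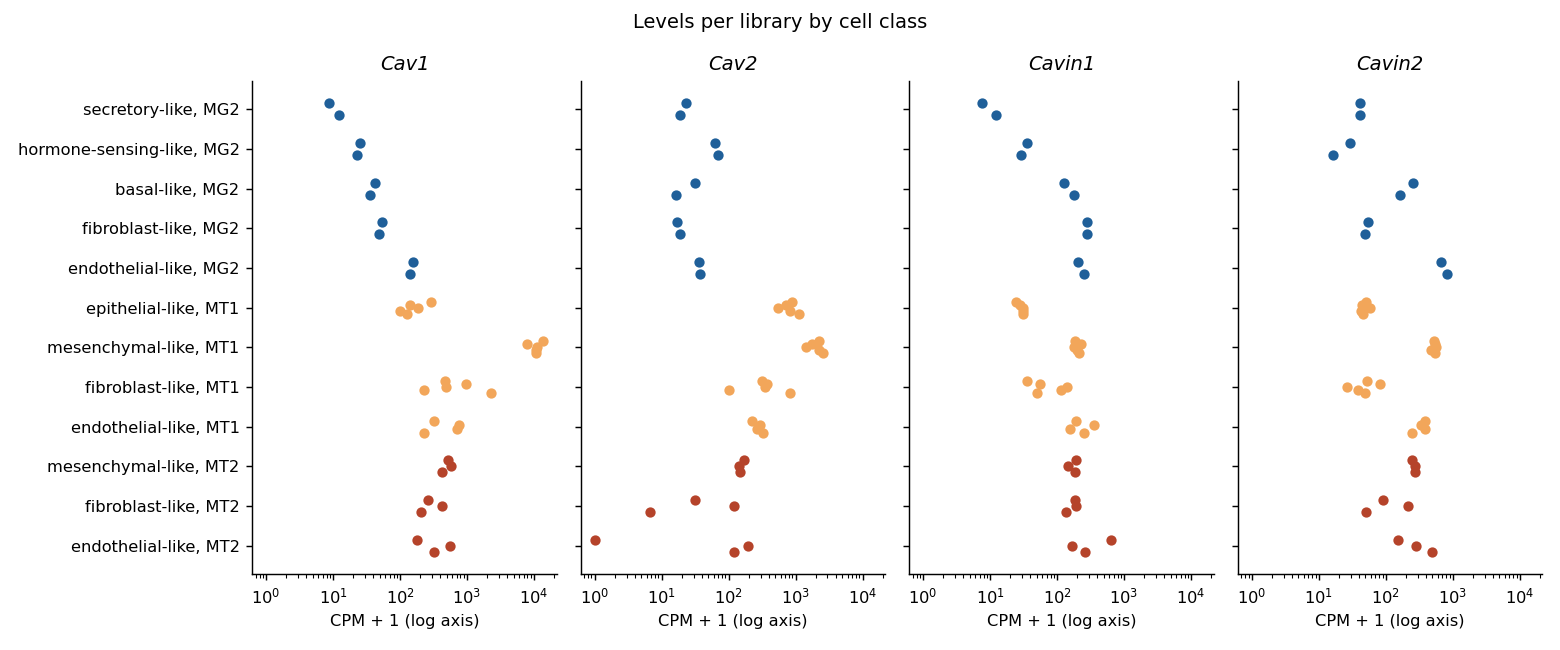
CPM + 1 (log axis, shared) of Cav1, Cav2, Cavin1 and Cavin2 per library in each cell class of MG2, MT1 and MT2, for libraries with at least 10 cells of the class. Cav1 in MT1 mesenchymal-like cells (7858 to 13624 CPM) stands apart, and Cavin1 there (177 to 229 CPM) overlaps with MT2 (144 to 192 CPM).

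Cell by cell the pattern was the same after every cell was thinned to 1000 UMIs (the lowest had 1111, so none was lost). Of MT1 mesenchymal-like cells 98.3% (exact Clopper-Pearson interval of 95%, 97.4 to 98.9) had a Cav1 UMI, with a median of 9 and a highest of 47 UMIs. In MT2 mesenchymal-like cells it was 38.3% (37.3 to 39.3), with a median of 0, beside 16.2% (11.03 to 22.5) of the 173 immune-like cells of MT2 at a median depth of 2289 UMIs, and in MT1 epithelial-like cells 8.13% (7.45 to 8.85). In secretory-like cells of MG2 the share was 0.431%. As a background within the same tumor, 11.3% (4.99 to 21.0) of the 71 hormone-sensing-like cells of MT1 had a Cav1 UMI, so the share in the MT1 epithelial-like cells is not above that level. Before thinning these 71 cells held 39 Cav1 UMIs and 47 Cav2 UMIs. Unthinned shares were 99.6%, 75.7%, 16.2% and 22.5%, at median depths of 2326, 3142, 2082 and 1946 UMIs. Cav2 had a UMI in 75.8% of MT1 mesenchymal-like and 38.5% of epithelial-like cells, and in 26.8% of those hormone-sensing-like cells, whose Cav2 was at 271 CPM, below the 740 CPM of the epithelial-like cells. These intervals cover counting error only.

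Co-detection in 1 cell is given as a description beside the product of the single shares. In MT1 epithelial-like cells Cav1 and Cav2 met in 4.07%, above the product of 3.13%, and the share lay above the product in each of the 5 libraries. The other pairs, pooled, also lay above their products. Cav1 with Cavin1 met in 0.315% (product 0.227%), Cav1 with Cavin2 in 0.465% (0.347%) and Cavin1 with Cavin2 in 0.232% (0.119%). The class includes a small cluster with more of both caveolins, described next, and its part in these shares was not tested. In MT2 mesenchymal-like cells 5.09% held Cav1 with Cav2 and 5.90% held Cav1 with Cavin1, where the products are 5.10% and 5.79%. In MT1 mesenchymal-like cells nearly every cell had a Cav1 UMI, so co-detection with Cav1 there carries no information.

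A finer clustering (resolution 1.0) split off 479 cells, 475 of them MT1, led by Krt6a, a stress keratin, and by interferon-induced genes such as Ifit1. In its MT1 cells Cav1 was at 1003, 340, 706, 740 and 1986 CPM and Cav2 at 3030, 2581, 1513, 2378 and 3047 CPM by library, while Cavin1 was at 54.8 CPM pooled. These cells were counted as epithelial-like above, and the MT1 cells of the other epithelial-like clusters at this resolution had 96.9, 89.2 and 117 CPM of Cav1.

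In the glands the members were divided among classes. Secretory-like cells of MG2 had 7.69 and 11.3 CPM of Cav1 and 6.59 and 11.3 CPM of Cavin1. Basal-like cells, of the myoepithelial lineage, had 124 and 178 CPM of Cavin1 and 163 and 259 CPM of Cavin2 in MG2, but 34.4 and 41.3 CPM of Cav1. In MG1 they had 166 and 307 CPM of Cavin1 with 15.8 CPM of Cav1 over both libraries. Hormone-sensing-like cells of MG2 had 62.4 and 67.9 CPM of Cav2, and fibroblast-like cells 276 and 278 CPM of Cavin1.

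The endothelial-like cells, which passed the depletion and carry all 10 endothelial markers, had 673 and 817 CPM of Cavin2 in MG2, the highest of its gland classes apart from 44 cells described next. A group of 44 MG2 cells fell in the mesenchymal-like cluster of tumor 1. They had 697 and 1067 CPM of Cav1, 1031 and 1641 CPM of Cavin2 and 267 and 368 CPM of Cavin1, and held 52.2% of the Cav1 UMIs of MG2. In MG1, 14 cells that fell in the epithelial-like tumor clusters had 357 CPM of Cav1 and 941 CPM of Cav2 and held 51.3% of the Cav2 UMIs of that gland. Without gland cells in tumor clusters (61 cells), the Cavin2 difference between the mice was 1.02 ± 0.33 (edgeR adjusted p = 0.0188) in place of 0.17 ± 0.34 (0.720), and without the mesenchymal-like cluster of tumor 1 it was 2.78 (5.72e-07).

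Fibroblast-like cells differed between tumor and gland, on 13 to 36 cells per MT1 library. Gland and tumor cells of this class mostly parted in the finer clustering: 1 cluster held 126 MG1, 124 MG2, 31 MT1 and 6 MT2 cells, and another 0, 11, 103 and 297, so the changes below compare mostly different clusters. Of the 5 members tested (Ehd2 was too low), all 5 were called in MT1 against MG1, where 36.9% of 3921 genes were (16.3% higher and 20.6% lower). Cav1 was at 72.0 and 30.9 CPM in MG1 and at 2280, 225, 478, 955 and 466 CPM in MT1, and Cav2 at 10.3 and 0 CPM in MG1, from 4 UMIs in all, and between 100.0 and 825 CPM in MT1. Cavin1 went the other way, from 409 and 255 CPM in MG1 to between 34.5 and 139 CPM in MT1. Cav1 was higher by 3.38 ± 0.60, Cav2 by 5.09 ± 0.89 and Cavin3 by 1.97 ± 0.40, and Cavin1 was lower by -2.28 ± 0.37 and Cavin2 by -1.39 ± 0.54 (edgeR adjusted p = 0.000144, 0.000123, 0.000508, 4.77e-05 and 0.0479). The Cavin2 call was lost in 9 of 13 alternatives, among them DESeq2 (adjusted p = 0.0786) and edgeR without MT1 replicate 3 (0.133). The fitted Cav2 value depends on the prior count, since 1 MG1 library is at 0. Capza2, a gene of the MT1 tumor cells, stood at 3427 CPM in these MT1 cells and 234 CPM in the MG1 ones, and Epcam at 459 and 423 CPM. The part of tumor RNA in the caveolin values was not tested. In MT2 against MG2, 1 of 5 was called (20.9% of genes, 8.70% higher and 12.2% lower), Cav1 by 2.36 ± 0.64 (edgeR adjusted p = 0.00928). Cav1 was at 286 CPM in these MT2 cells (exact Poisson interval 252 to 323), at 219 CPM in the immune-like cells of MT2 (181 to 263) and at 509 CPM in its mesenchymal-like cells, and the part of tumor RNA in this value was not tested either. The difference between the mice was called for 0 of 5 members and for 152 genes (3.88%, 1.12% higher and 2.75% lower). By edgeR 675 genes had p below 0.05 before adjustment, and DESeq2 called 147.

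In endothelial-like cells of MT2 against MG2, 1 of 5 members was called, where 23.8% of 2193 genes were (9.99% higher and 13.8% lower): Cavin2 was lower, at 499, 281 and 150 CPM in MT2 against 673 and 817 CPM (log2 fold change -1.23 ± 0.35, edgeR adjusted p = 0.00929). DESeq2 gave an adjusted p of 0.0528, and edgeR 0.0601 without MT2 replicate 3. Cav1 had 1.16 ± 0.45 (0.0595). Mouse 1 was not tested, because 1 MG1 library alone reached 10 such cells. The MT1 cells had 4631 CPM of Capza2 against 213 CPM in MG1.

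Several neighbours of Cav1 on chromosome 6 were also higher in MT1. Of the 17 genes of the table that start within 1.5 Mb, Cav1 itself included, 9 were tested, Cav1 among them. Met (157 kb away), Capza2 (331 kb) and St7 (388 kb) were higher in MT1 than in MG1 by 4.19, 5.07 and 5.30 on the log2 scale (edgeR adjusted p = 1.89e-09, 8.61e-09 and 3.70e-11). Tes, 241 kb to the other side, was lower by -1.05 (0.000813) in MT1 and by -0.68 (0.0237) in MT2. The MG1 libraries differed: Tes was at 520 and 195 CPM in MG1 and between 162 and 201 CPM in MT1, and the 14 MG1 cells in tumor clusters held 58.5% of its MG1 UMIs. By class Tes was at 156 CPM in gland luminal-like cells, 177 CPM in epithelial-like and 195 CPM in mesenchymal-like MT1 cells. In MT2 the values for Met and St7 were 0.32 and 0.40 (adjusted p = 0.240 and 0.111), and Capza2 was higher by 1.15 (0.00361). Unlike Cav1, these genes were near equal in both MT1 tumor classes, Met at 2681 CPM in epithelial-like and 2477 CPM in mesenchymal-like cells and Capza2 at 12438 and 10024 CPM, while Cav1 was at 174 and 10564 CPM. Wnt2 (679 kb) was also called higher in MT1 (3.47, edgeR adjusted p = 0.00610), at a mean of 3.79 CPM. Like Cav1 it was unequal between the classes, at 1.30 CPM in epithelial-like and 14.8 CPM in mesenchymal-like MT1 cells. Cttnbp2 was listed at 0 in every tumor group mean.

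**Figure D5:**
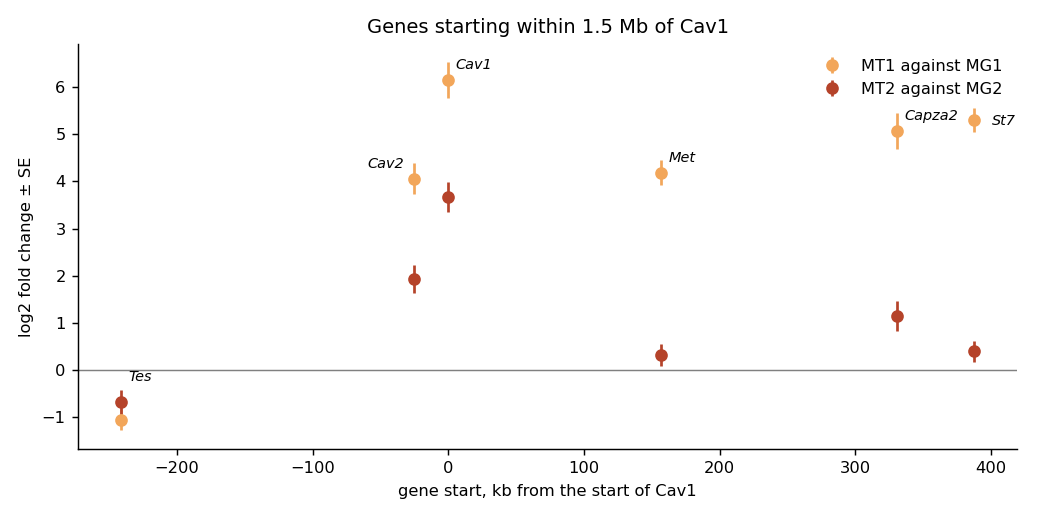
Log2 fold change with SE, tumor against gland, of the genes tested around Cav1 whose mean reached 5 CPM in a group, by distance of the gene start in kb. In MT1 the genes from Cav2 to St7 lie between 4.05 and 5.30 apart from Cav1 at 6.14; Tes lies below 0, with the MG1 libraries at 520 and 195 CPM and the MT1 libraries between 162 and 201 CPM.

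Across the 11 clusters the genes most like Cav1 in log2(CPM + 10) were Zfand3 (Pearson r = 0.955), Gfod1, Glrx3, Calr and Cdc27, of 6036 genes ranked. Among those most like Cavin1 were Prnp (0.971), Cntln, Agpat4 and Fkbp7. Cav2 had r = 0.745 with Cav1 and -0.010 with Cavin1. The clusters share libraries, and these values are descriptions.

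Genes that work with caveolae were called in both directions. Of 17 partner genes 13 were tested, with a median log2 fold change of -0.10 in MT1 against MG1, where that of all genes was 0.11. In MT1, 1 was called higher and 3 lower, where 59.3% of all genes were called. In MT2, 3 were higher and 6 lower, where 67.0% of all genes were called (median -0.03, all genes -0.05). Cd36, a fatty acid receptor found in caveolae, fell by 4.86 on the log2 scale in MT1 and by 6.23 in MT2 (edgeR adjusted p = 0.000597 and 1.39e-06). Nostrin, which traffics endothelial nitric oxide synthase, rose by 2.52 in MT2, and Ehd3, a relative of Ehd2, fell by 4.22. Ehd4, another relative of Ehd2, fell by 1.40 in MT1 and by 0.79 in MT2 (edgeR adjusted p = 5.19e-07 and 0.000261), from a mean of 383 to 144 CPM and of 305 to 176 CPM. Pacsin2, a membrane-bending protein of caveolae, rose by 0.74 in MT1 and fell by 0.69 in MT2.

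Of the flotillins, which form other membrane domains, Flot1 rose by 0.89 in MT1 and 1.57 in MT2, and Flot2 fell by 1.60 in MT1. Of 12 clathrin coat genes, all tested, 2 were higher and 7 lower in MT1, against 59.3% of genes called (median -0.67, all genes 0.11). In MT2, 2 were higher and 3 lower, against 67.0% (median -0.14, all genes -0.05). Ap2a1, an adaptor subunit, fell by 2.06 in MT1, Ap2b1 fell by 1.37 in MT1 and 1.43 in MT2, and Cltb, a clathrin light chain, fell by 3.09 in MT2.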

How the data were processed

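Single cells were read by Drop-seq in 12 libraries of 4 groups. The authors processed reads with Drop-seq tools and STAR against Ensembl GRCm38.p6 and filtered cells; what they deposited is a table of unnormalized counts of UMIs, by gene and cell. Here cells were clustered (scanpy 1.11.5, leidenalg 0.10.2, 3000 variable genes, 30 components, 20 neighbours, resolution 0.6) with members and partner genes left out. A cluster was named "X-like" from its markers at a log2 fold of 1 or more. The epithelial-like clusters passed 4 of 9 markers (3457 cells, without Epcam) and 8 of 9 (2601 cells). The mesenchymal list was scored against luminal clusters, a reference chosen after seeing the data. Of its 14 markers the mesenchymal-like clusters of MT2 passed 10 and 11, and that of tumor 1 passed 11. Against all other clusters they passed 3, 0 and 6. Doublets were not removed: scores above the caller's threshold were found for 44 cells (0.208%), which is too low a share to trust, and leaving out the top 5% of scores was an alternative. Counts were summed per library (at least 10 cells for a class) and tested with edgeR 4.0.16 (TMM, quasi-likelihood, false discovery rate 0.05), with DESeq2 1.42.0, RLE scaling, no low-count filter, other cell sets, and each library left out as alternatives; the script was tested on simulated data. Named genes were the members, the genes most like Cav1 and Cavin1, the genes around Cav1 and the called partners of largest change; Krt6a, Ifit1 and Brca1 were added after their values were seen. An item that the naming rule selects is not reported here. Members and lists were chosen with earlier results of these data known. No pair of libraries shared more than 7 barcodes.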

Additional observations from a re-analysis of the deposited data

Results flagged for a closer look

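Cavin2 in MT1 was 1 library apart: it stood at 97.2 CPM in MT1 replicate 2 and between 147 and 158 CPM in the other 4, a gap that chance alone gives in about 1 of 20 groups. The rule needs more libraries than MG1, MG2 or MT2 have, so it was run on each member in MT1 only. MT1 replicate 2 also had the lowest share of mesenchymal-like cells of MT1 (9.40%, the others 16.1% to 21.1%), whose part in the value was not tested. Of the members, 4 differed between the mice by an interaction test (edgeR), as did 43.5% of all genes: Cav1 by -2.48, Cav2 by -2.12, Cavin1 by 2.29 and Ehd2 by 1.12 on the log2 scale, MT2 change minus MT1 change. The Ehd2 call was lost in 7 of 21 alternatives, and the Cav1 value was 2.66 without the mesenchymal-like cluster of tumor 1.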

How the results depend on the processing

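Libraries, not mice, are the replicates, and 1 mouse stands behind each tumor. Without the mesenchymal-like cluster of tumor 1, which held most Cav1 UMIs of MT1, the Cav1 difference between the mice was 2.66 and Cav1 in MT2 against MT1 1.71, both reversed, and Cavin1, Cavin3 and Ehd2 in MT1 against MG1 were -1.08, -0.59 and -0.45. The differences of Cavin2, Cavin3 and Ehd2 then reached 2.78, 1.14 and 2.00, all called by edgeR. Luminal-like gland cells against epithelial-like MT1 and mesenchymal-like MT2 cells, chosen after seeing the data, gave 1.92 and 1.61 for Cav1, 1.64, 1.02 and 1.78 for the differences of Cavin2, Cavin3 and Ehd2, and -0.41, -0.71 and -0.35 for Cavin1, Cavin3 and Ehd2. With all cells, Cavin1 was -0.76, Ehd2 -0.14 and the Cavin3 difference -0.16, and 5 members were called in MT1 against MG1 (61.9% of all genes). Cavin1 there, near 0, was -0.098 (RLE), -0.063 (DESeq2), -0.023 (only the groups compared), -0.058 (fewer doublets), -0.032 (without MT1 replicate 4) and, over the libraries left out, from -0.32 (MG1 replicate 2) to 1.18 (MG1 replicate 1). The Cavin2 difference was -0.86 without basal-like cells and from -0.13 to 0.70 with a library left out; the Cavin3 difference was from -0.23 to 0.46 with a library left out, with -0.071 without MT2 replicate 2, and the Ehd2 difference from -0.028 (without MG1 replicate 1) to 1.47. In single classes, Cav2 in fibroblast-like MT2 cells was from -0.045 to 1.93, Cavin1 in endothelial-like cells from -0.12 to 0.72, and Cavin1 in mesenchymal-like cells from -0.19 to 0.011 with a library left out. The cause of these changes was not tested. With the mouse block, DESeq2 called 3 members (9.15% of all genes) where edgeR called 0 (0%); without the replicate block edgeR also called 0 (0%). DESeq2 called 0 in endothelial-like cells (10.9% of genes), and no filter on low counts gave 1 in the fibroblast-like difference (1.30%). Leaving out a library gave 3 to 4 members called (MT1 against MG1; 43.0% to 59.4% of all genes), 5 to 6 (MT2 against MG2; 54.5% to 70.1%), 3 to 4 (difference; 34.2% to 43.7%), 5 to 5 (MT2 against MT1; 62.0% to 71.1%), 5 to 5 (mesenchymal-like; 57.2% to 63.9%), 4 to 5 and 1 to 2 (fibroblast-like, mouse 1 and 2; 30.2% to 42.3% and 16.7% to 22.5%), 0 to 1 (their difference; 2.86% to 4.76%) and 1 to 2 (endothelial-like; 16.1% to 27.9%). For the differences all groups were already fitted together, so a fit to the compared groups alone is the same fit. Cav1 shares move with depth: thinned to 500 UMIs they were 93.0%, 22.2% and 4.83% in MT1 mesenchymal-like, MT2 mesenchymal-like and MT1 epithelial-like cells, and unthinned 75.7% and 16.2% in the last pair.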
